A study of Mus musculus with 24 samples.

Results

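The genes described here are 44 cell cycle and proliferation genes, measured in the left ventricle of the mouse heart. They were listed by name, and a member was tested in a strain where a probe annotated to it had a detection p below 0.05 on at least 3 of that strain's 12 arrays. The whole series held probes annotated to 19057 genes. Of the 44 members, 41 had an annotated probe, 83 probes in all, and 26 were tested in C57Bl/6J, 28 in Balb/C and 26 in both. By role, 11 members act in DNA replication or nucleotide supply (S-phase members), 29 act in G2 and mitosis (mitotic members) and 4 fall outside both (other members).

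The study asked how Bmx deficiency affects the cardiac hypertrophy that angiotensin II (AngII) induces. AngII, a pressor peptide, or NaCl (sham) was infused into male mice for 2 weeks, and RNA of the left ventricle was hybridised to 24 one-colour Illumina bead arrays. Bmx is a cytoplasmic tyrosine kinase of the Tec family. The 8 groups held 3 arrays each. In strain C57Bl/6J they were wild type (WT) with sham, WT with AngII, Bmx-deficient with sham and Bmx-deficient with AngII, the deficient animals being labelled KO. In strain Balb/C the same 4 groups were made, with the deficient animals labelled TK. The sources used here do not spell out either abbreviation, the alleles or the age of the animals, and do not say whether replicates were separate animals, so the p-values measure only the spread between these samples. The labelled tissue was left ventricle, and 7 of 8 ventricular myocyte markers were measured in both strains.

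Cells copy their DNA in S phase and divide in M phase, and the genes for these steps are largely silent in cells that have left the cycle. E2F factors drive many S-phase genes. Mitotic genes are switched on later, in G2, through B-MYB and FOXM1 bound with the MuvB complex at CHR elements, often beside CCAAT boxes that bind NF-Y. Most adult ventricular myocytes are out of the cycle, whereas fibroblasts, macrophages and endothelial cells of the heart can divide.

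Promoters of the members are shown first because CHR and E2F letters occur at different shares in S-phase and mitotic members, and the results are given by the same roles. RefSeq windows of GRCm38.p6, from 250 bases before to 50 after each start, were found for 36 of the 44 members, as 39 windows. Motifs were searched on both strands, with overlapping matches counted separately. The CHR motif was spelled TTTGAA, or with a changed middle TTCGAA. The NF-Y motif was CCAAT. The E2F motif was spelled TTCCCGC, and its accepted variants were TTCGCGC, besides this the spelling TTGCCGC, and as the last variant TTGGCGC. CHR letters stood in 75.0% of the mitotic members with a window (18 of 24), in 20% of the S-phase members (2 of 10) and in 21.7% of 27025 genes. A CHR and a CCAAT together in 1 window were found for 70.8% of the mitotic members (17 of 24) against 8.61% of all genes. E2F letters were found for 60% of the S-phase members (6 of 10), 20.8% of the mitotic members (5 of 24) and 10.9% of all genes. CCAAT alone separated the roles less, at 83.3% of mitotic members (20 of 24) and 80% of S-phase members (8 of 10), against 41.1% of all genes. A match is only a description of the letters. The 250 bases before the start follow for 4 mitotic members and 2 S-phase members whose values the results turn on, 5′ to 3′ on the gene's strand in lower case, with motif letters in capitals.
Prc1: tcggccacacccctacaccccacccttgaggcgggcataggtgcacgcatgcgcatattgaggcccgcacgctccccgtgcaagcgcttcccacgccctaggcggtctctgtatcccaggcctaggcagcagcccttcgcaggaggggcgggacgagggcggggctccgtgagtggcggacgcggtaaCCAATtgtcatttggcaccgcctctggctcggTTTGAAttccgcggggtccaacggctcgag
Cdk1: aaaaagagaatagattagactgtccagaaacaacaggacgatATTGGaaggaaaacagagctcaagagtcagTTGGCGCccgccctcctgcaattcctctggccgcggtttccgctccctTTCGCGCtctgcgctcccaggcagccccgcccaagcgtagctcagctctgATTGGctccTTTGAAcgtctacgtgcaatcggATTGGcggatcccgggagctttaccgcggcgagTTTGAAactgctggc
Cdc20: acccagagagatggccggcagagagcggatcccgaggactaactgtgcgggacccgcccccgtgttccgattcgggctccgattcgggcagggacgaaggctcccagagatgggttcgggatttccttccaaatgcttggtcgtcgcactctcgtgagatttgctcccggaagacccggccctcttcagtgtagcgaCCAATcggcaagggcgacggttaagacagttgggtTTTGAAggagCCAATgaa
Top2a: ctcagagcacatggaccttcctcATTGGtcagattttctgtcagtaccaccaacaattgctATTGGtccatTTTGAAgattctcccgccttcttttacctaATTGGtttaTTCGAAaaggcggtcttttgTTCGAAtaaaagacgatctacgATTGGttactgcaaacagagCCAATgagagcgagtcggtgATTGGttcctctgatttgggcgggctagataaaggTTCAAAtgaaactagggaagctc
Mcm5: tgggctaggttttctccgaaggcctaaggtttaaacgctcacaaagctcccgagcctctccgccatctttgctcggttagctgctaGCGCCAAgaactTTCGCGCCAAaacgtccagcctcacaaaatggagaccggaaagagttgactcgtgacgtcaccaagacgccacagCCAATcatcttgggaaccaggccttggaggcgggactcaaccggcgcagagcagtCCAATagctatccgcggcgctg
Tyms: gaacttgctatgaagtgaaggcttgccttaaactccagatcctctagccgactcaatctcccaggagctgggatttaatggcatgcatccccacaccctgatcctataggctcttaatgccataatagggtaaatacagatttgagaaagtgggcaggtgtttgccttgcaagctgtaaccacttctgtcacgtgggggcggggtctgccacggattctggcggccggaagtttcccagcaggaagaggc
The Prc1 window lies at chr7:80294226-80294475 on the plus strand, is 1 of 2 windows listed for the gene, and holds 1 CHR and 1 CCAAT. Cdk1 (chr10:69352913-69353162, minus strand) has 2 CHR, 3 CCAAT and 2 E2F matches. Cdc20 (chr4:118437344-118437593, minus strand) has 1 CHR and 2 CCAAT. Top2a (chr11:99024190-99024439, minus strand) has 4 CHR and 6 CCAAT. Mcm5 (chr8:75109259-75109508, plus strand) has 3 E2F and 2 CCAAT matches with no CHR. Tyms (chr5:30073626-30073875, minus strand) holds none of these letters in the 250 bases.

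Median array signals before normalization ranged from 124.2 to 139.8 in C57Bl/6J and from 95.3 to 110.2 in Balb/C. Correlations between replicates ran from 0.984 to 0.991. Values below are log2 signals after background correction and quantile normalization within each strain, so a log2 difference is a ratio of signals. The lowest signal called detected on an array lay between 4.96 and 5.08 in C57Bl/6J and between 4.72 and 4.82 in Balb/C. Of the members, 15 were detected on all 12 arrays in C57Bl/6J and 14 in Balb/C. The strains were normalized apart, so levels are not compared between them. "Rose" and "fell" mean an adjusted p below 0.05 in limma's moderated test, adjusted over all 10816 genes tested in C57Bl/6J or 10669 in Balb/C. Of 4 Bmx probes, 1 was detected on all 24 arrays in wild-type and deficient groups alike. The sources used here do not place it relative to the altered part of the gene, so it checks nothing.

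No probe was annotated to 3 members, Mki67 (the Ki-67 antigen), Ccnb1 (cyclin B1) and Tacc3 (a spindle protein). A further 13 had probes that missed the detection rule in both strains. They were Pcna (the polymerase clamp), Ccna2 and Ccnb2 (cyclins), Bub1 (a checkpoint kinase), Kif20a and Cenpe (kinesins), Ube2c (an APC/C ubiquitin-conjugating enzyme), Tpx2 (an Aurora A activator), Racgap1 and Ect2 (cytokinesis regulators), Cks2 and Cks1b (CDK-binding proteins) and Stmn1 (a tubulin-destabilising protein). Plk1 and Kif11 missed it in C57Bl/6J only. A member can pass the rule through a group in which it is high, and then has to differ. This held for Rrm2 and Top2a in C57Bl/6J, each of which had fewer than 3 detected arrays outside 1 group. Mcm3 in Balb/C also had fewer than 3 outside the wild-type AngII group. Its mean log2 signal there (4.84) was near those of TK sham (4.82) and wild-type sham (4.78).

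In wild-type Balb/C ventricle, AngII was followed by higher signals of the mitotic members. Most S-phase members did not pass the test after background correction and quantile normalization. All 16 mitotic members tested rose, by 0.46 to 2.02 on the log2 scale (median 1.28), against 1 of 10 S-phase members (median 0.25) and 1 of 2 other members. The background was high in this comparison, since 37.2% of all genes tested passed, 1895 upward and 2070 downward, with a median over all genes of -0.06. Among members detected on all 12 arrays, 6 of 6 mitotic members rose (median 1.42) and 1 of 6 S-phase members (median 0.35). With no filter on detection, 15 of 26 mitotic members with a probe rose (median 0.71) and 1 of 11 S-phase members (median 0.37). Without background correction the mitotic median was 0.57 and 16 members rose. With median scaling 24 of 28 members rose, so most of the 10 S-phase members did too. The S-phase median was then 0.61 and the mitotic median 1.65, with the median over all genes at 0.32. The difference between both role lists is given as counts and medians, with no test. In whole ventricle, more or fewer cells of a type and more or less RNA per cell cannot be told apart.

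**Figure D1:**
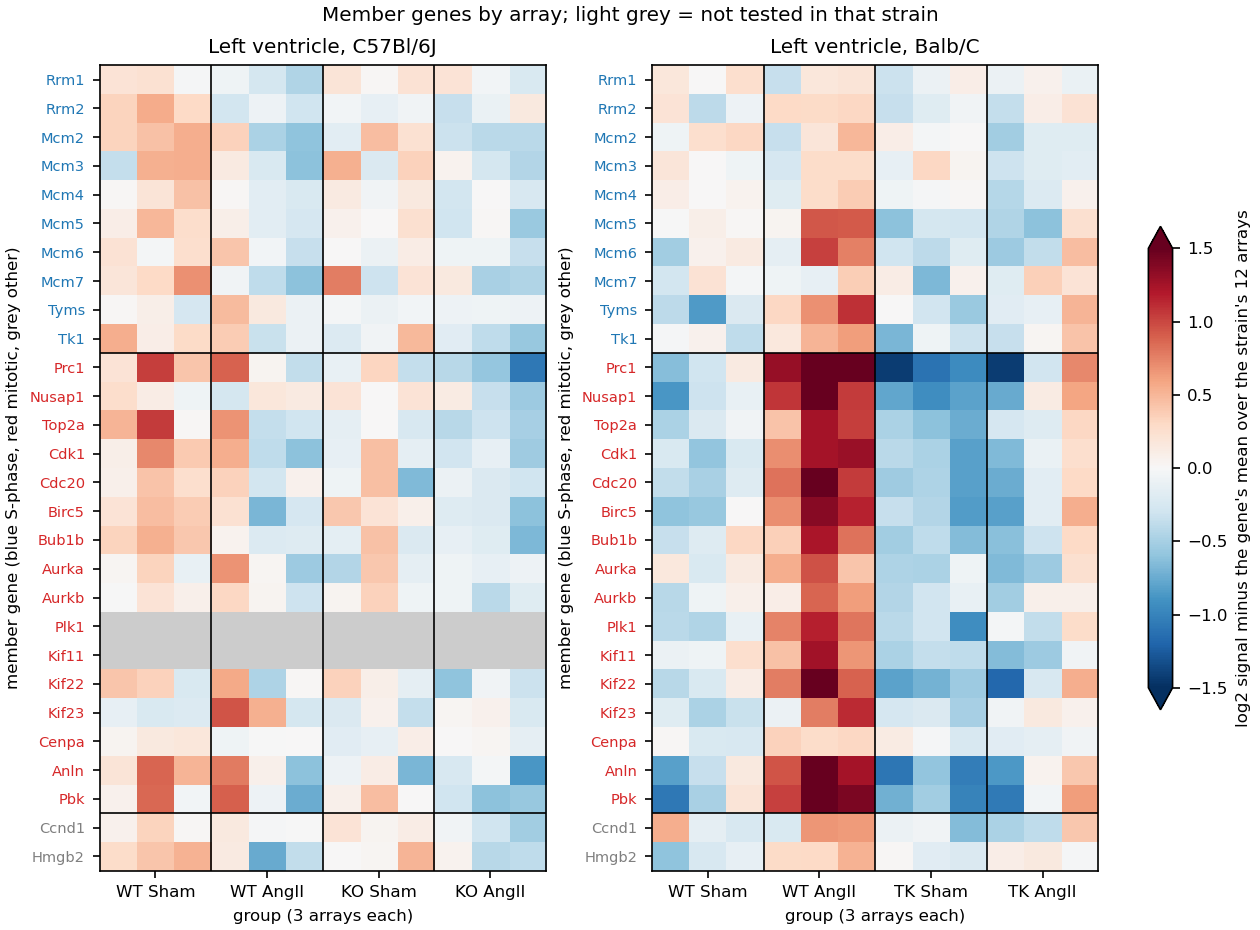
Each cell is 1 member gene (vertical axis, ordered by role) on 1 array (horizontal axis, 3 arrays a group), coloured by its log2 signal minus the gene's mean over the 12 arrays of the strain, with light grey for a gene not tested in that strain. The 3 wild-type AngII arrays of Balb/C are the highest for the mitotic members (median over 14 of them 6.6 to 7.23), and the TK AngII arrays run from 4.87 to 6.16.

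Prc1, which bundles microtubules in the spindle midzone, had the largest mitotic difference. Its log2 signals were 6.91, 7.26 and 7.69 on the wild-type sham arrays of Balb/C and 8.87, 9.83 and 9.23 on the wild-type AngII arrays. The groups did not overlap, and the difference of 2.02 (SE 0.38) was a fold of 4.07 with an adjusted p of 0.000745. Nusap1, a spindle microtubule protein, gave 4.65, 5.21 and 5.41 in sham and 6.59, 7.24 and 6.56 with AngII. It rose by 1.71 (SE 0.28, adjusted p 0.000228, limma). Anln (anillin), a scaffold of the cleavage furrow, rose by 1.71 from 5.86, 6.33 and 6.82 to 7.62, 8.61 and 7.92 (adjusted p 0.000514). All of these lowest AngII values lay above the highest sham value, and replicate 2 was the highest AngII array for each.

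The mitotic kinase and the factors that act with it moved the same way. Cdk1, the kinase that starts mitosis, gave 4.87, 4.51 and 4.87 in wild-type sham and 5.80, 6.35 and 6.40 with AngII in Balb/C. That rise of 1.44 (SE 0.22) was a fold of 2.71 with an adjusted p of 0.000113. Cdc20, which activates the anaphase-promoting complex, rose by 1.5 from 6.00, 5.88 and 6.19 to 7.19, 7.97 and 7.43 (adjusted p 0.000147). Birc5 (survivin), a subunit of the chromosomal passenger complex, rose by 1.46 from 4.95, 4.98 and 5.56 to 6.26, 6.92 and 6.70 (adjusted p 0.00073). For Cdk1, Cdc20 and Birc5 the sham and AngII arrays were separated by a wider gap than the range of the sham arrays. Pbk, a mitotic kinase, rose by 1.81 (adjusted p 0.000764), from 4.51, 5.09 and 5.77 to 6.61, 7.21 and 6.99. Plk1, a kinase of mitotic entry, rose by 1.22 from 5.09, 5.04 and 5.38 to 6.22, 6.66 and 6.29 (adjusted p 0.000209).

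Among the enzymes and motors of chromosomes, Top2a, the topoisomerase that untangles sister chromatids, gave 4.77, 5.02 and 5.19 in sham and 5.66, 6.49 and 6.27 with AngII, a rise of 1.15 (adjusted p 0.000429). The kinesin motors also rose, Kif22 by 1.34 (adjusted p 0.00507), Kif23 by 0.93 (adjusted p 0.00414) and Kif11 by 0.75 (adjusted p 0.00773). The smaller rises were those of Bub1b, a checkpoint kinase (0.87), the Aurora kinases Aurkb (0.67, adjusted p 0.0195) and Aurka (0.61, adjusted p 0.0364), and Cenpa, the centromeric histone H3 variant (0.46, adjusted p 0.013). Both Aurora calls ended without background correction, with no filter and with the deposited values, and with some single arrays left out, where adjusted p reached 0.15 for Aurka and 0.0965 for Aurkb. Cenpa was at 11.67, 11.42 and 11.42 in sham against 11.99, 11.93 and 11.96 with AngII. In none of the 16 mitotic members did the ranges of sham and AngII overlap. Over all genes tested, 46.5% were separated in this way in the same comparison, as were 3 of 10 S-phase members.

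Most replication members did not pass after background correction and quantile normalization. Of the MCM helicase subunits, Mcm2 differed by -0.05, Mcm3 by 0.06, Mcm4 by 0.11 and Mcm7 by 0.09, none past the test. Mcm5 gave 7.19, 7.29 and 7.22 in wild-type sham and 7.24, 8.13 and 8.12 with AngII, a difference of 0.60 with an adjusted p of 0.0573, and the ranges of both groups overlapped. Mcm6 differed by 0.65 (adjusted p 0.0816), its replicate 1 under AngII (5.44) lying within the sham range of 5.06 to 5.71. The ribonucleotide reductase subunits make deoxyribonucleotides. Rrm1, the large one, was at 6.84, 6.67 and 6.92 in sham and 6.33, 6.84 and 6.86 with AngII (-0.13, adjusted p 0.548). Rrm2, the small one, was at 5.01, 4.41 and 4.73 and then 5.10, 5.09 and 5.12 (0.39, adjusted p 0.0878). Tk1 (thymidine kinase) differed by 0.54 (adjusted p 0.0523). The ranges of sham and AngII did not overlap for Rrm2 and Tk1.

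Tyms was the exception among the S-phase members. This thymidylate synthase gene gave 5.44, 4.98 and 5.61 in wild-type sham and 6.14, 6.51 and 6.93 with AngII in Balb/C. The groups did not overlap, and the rise was 1.19 (SE 0.23, fold 2.28, adjusted p 0.000884, limma). Hmgb2, a chromatin protein of dividing cells, rose by 0.69, from 5.47, 5.83 and 5.95 to 6.36, 6.36 and 6.58 (adjusted p 0.00171). Ccnd1 (cyclin D1), which drives G1, was at 11.66, 10.98 and 10.87 in sham and 10.88, 11.77 and 11.75 with AngII, with overlapping groups (0.29, adjusted p 0.44).

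Second probes of the same genes gave a further reading of the same RNA. In wild-type Balb/C, 14 further probes of 10 members passed the detection rule. All 14 were above 0 for AngII against sham, and 10 of them rose. For Kif23 the tested probe, the brightest, gave 0.93 and the others gave 2.49 and 0.89. Of the members below the detection rule, Tpx2 differed by 0.32 in the fit without a filter (adjusted p 0.0163), Pcna by 0.37 (adjusted p 0.0547), Ccna2 by 0.07 and Ccnb2 by -0.08.

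**Figure D2:**
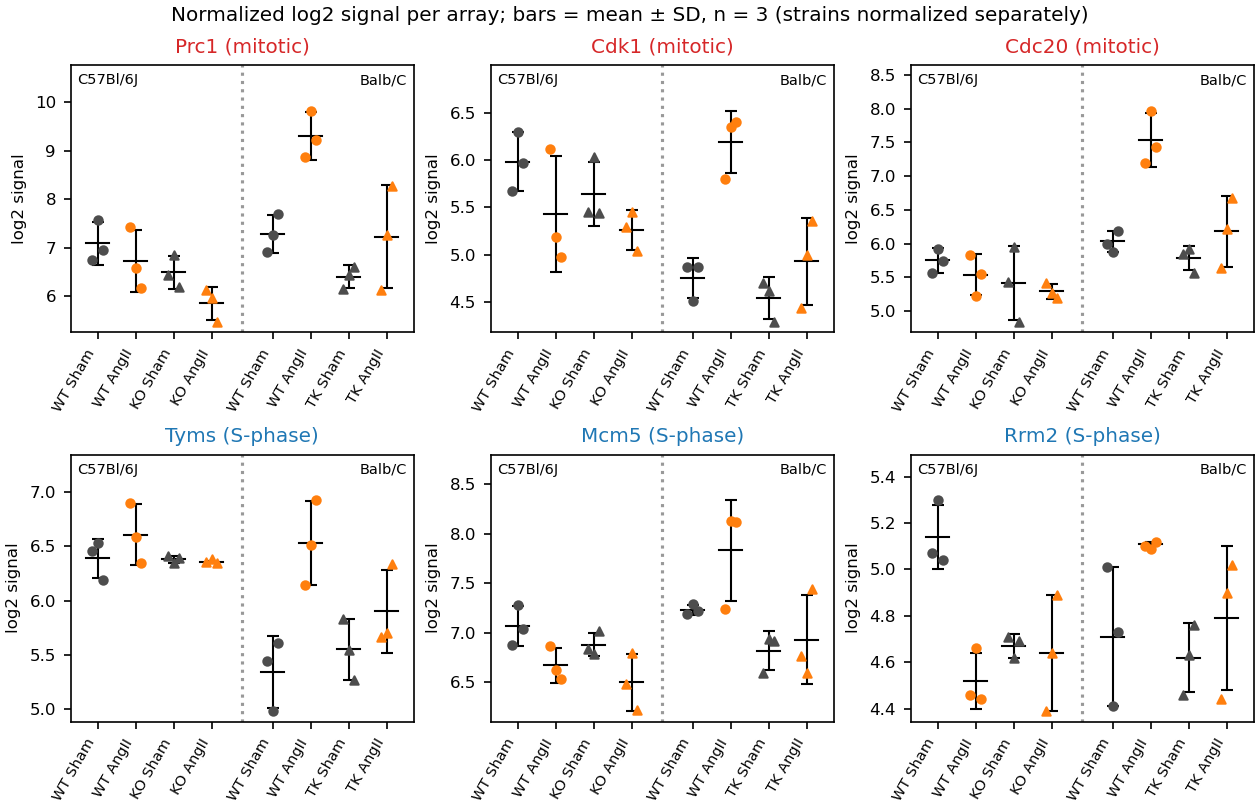
Points are normalized log2 signals (vertical axis) of single arrays for 3 mitotic members and 3 S-phase members in the 8 groups (horizontal axis), with mean ± SD over 3 arrays. Strains were normalized apart and Cdc20 was read from different probes in the 2 strains. The wild-type AngII arrays of Balb/C stand above all sham arrays of that strain for Prc1, Cdk1, Cdc20, Tyms and, by a narrow gap, Rrm2.

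In TK Balb/C ventricle no member passed the test for AngII against sham, where 13.3% of all genes did. Of 14 further probes of 10 members, 12 were above 0 and 1 rose. The median over 16 mitotic members was 0.40, with 14 above 0, and the median over 10 S-phase members was 0.13. Prc1 differed by 0.83 (95% interval 0.01 to 1.64, adjusted p 0.168). Nusap1 was detected on no TK sham array, and its AngII mean was at least 1.63-fold higher (adjusted p 0.0632). Top2a, likewise not detected there, was at least 1.32-fold higher (adjusted p 0.0761). Kif11 (-0.01) and Cenpa (-0.07) lay lowest. The Kif11 probe was detected on no TK sham array and on 1 of 3 TK AngII arrays, so its value rests on background. Of the S-phase members, Tk1 at 0.39 and Tyms at 0.35 lay highest, and Mcm2 lay at -0.32. Mcm3 was detected on no TK AngII array.

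The 3 TK AngII arrays differed from each other. Prc1 was at 6.13, 7.26 and 8.28 there against 6.14, 6.44 and 6.61 on the TK sham arrays. Nusap1 was at 4.75, 5.64 and 6.10 against 4.73, 4.58 and 4.71. Replicate 1 lay at the level of sham for Prc1 and near it for Nusap1, and replicate 3 was highest for both. The median over 14 mitotic members was 4.87, 5.59 and 6.16 on these arrays, 5.03, 5.09 and 4.94 in TK sham, and 6.6, 7.23 and 6.85 in wild-type AngII. Without replicate 1 of the TK AngII group, 4 members rose, namely Prc1 by 1.37, Anln by 1.13, Pbk by 1.04 and Nusap1, for which no size is given because of its sham arrays. Without replicate 1 of the wild-type AngII group, which enters the shared variance, 1 member rose, Top2a.

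Under AngII, TK Balb/C ventricle had lower mitotic members than wild type. Of 28 members tested 14 were lower and 0 higher, made up of 13 of 16 mitotic members (median -1.21) and 1 of 10 S-phase members (median -0.37). Of all genes, 10.7% passed, 420 higher and 720 lower, and the median over all genes was 0.00. With no filter, 11 members fell, all of them mitotic (median -0.80). Without background correction the mitotic median was -0.46, and 15 members fell. With median scaling 24 of 28 members fell, so most of the 10 S-phase members did too. The median over all genes was then -0.26. This comparison uses the same wild-type AngII arrays as the one above, so the results are not separate support for each other.

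Prc1 was 2.08 lower on the log2 scale in TK (SE 0.38, fold 4.24, adjusted p 0.00251), with TK values of 6.13 to 8.28 against 8.87 to 9.83. Cdk1 gave 4.44, 5 and 5.35 in TK against 5.80, 6.35 and 6.40 in wild type, and fell by 1.26 (adjusted p 0.0015). Cdc20 fell by 1.35, with 5.63, 6.22 and 6.68 against 7.19, 7.97 and 7.43 (adjusted p 0.00148). Kif11, the motor that separates the spindle poles, gave 4.36, 4.46 and 4.95 against 5.44, 6.27 and 5.66 and fell by 1.20 (adjusted p 0.0012). Its probe was detected on 1 of the 3 TK arrays, so this size rests partly on background. In all 13 mitotic members that fell, the highest TK array lay below the lowest wild-type array. Over all genes 29.3% were separated in this comparison, as were 1078 of the 1140 genes that passed. The others of the 13 were Anln (-1.51), Pbk (-1.51), Kif22 (-1.45), Nusap1 (-1.30), Birc5 (-1.21), Bub1b (-1.01), Aurka (-0.96), Top2a (-0.95) and Plk1 (-0.94). Aurkb (-0.65, adjusted p 0.0565), Kif23 (-0.55, adjusted p 0.129) and Cenpa (-0.43, adjusted p 0.0506) did not pass. Of the other probes of these genes, 8 of 14 fell and 0 lay above 0.

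The S-phase member among the 14 that fell was Mcm5, by 0.90 (SE 0.23, adjusted p 0.0218). Its values were 6.76, 6.59 and 7.44 in TK with AngII against 7.24, 8.13 and 8.12 in wild type, so the groups overlapped. It was lost in the fit without a filter and in the fit on the compared groups alone. Tyms differed by -0.63 (adjusted p 0.0943), Mcm6 by -0.70 (adjusted p 0.125), Hmgb2 by -0.29 (adjusted p 0.218) and Ccnd1 by -0.50 (adjusted p 0.27). The count rested partly on single arrays. It was 7 without replicate 2 of wild-type AngII and 8 without replicate 1 of TK AngII.

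At the sham baseline no member differed between TK and wild-type Balb/C, and 0% of all genes passed in limma, with 1134 genes at an unadjusted p below 0.05. The medians were -0.32 for the mitotic and -0.14 for the S-phase members. Prc1 was lowest at -0.89 (adjusted p 0.45). Its TK sham values (6.14, 6.44 and 6.61) lay below the wild-type sham values. The difference of the AngII responses, TK minus wild type, passed for 0 of 28 members, where 2.09% of all genes passed. All 16 mitotic differences were below 0 (median -0.82), with Cdk1 at -1.04 (95% interval -1.69 to -0.40, adjusted p 0.0973), Cdc20 at -1.10 (adjusted p 0.1), Prc1 at -1.20 (adjusted p 0.314) and Pbk at -1.22 (adjusted p 0.244). The Cdk1 probe was detected on no TK sham array, so its fitted value is no measure of size. The S-phase median was -0.27, and Tyms differed by -0.83 (adjusted p 0.233). Without replicate 3 of TK AngII 4 members passed, Prc1, Cdk1, Cdc20 and Birc5, and without replicate 1 of wild-type AngII 3 passed, Cdk1, Cdc20 and Kif23, all of them lower.

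Several marker lists of heart cell types moved with these comparisons in Balb/C. The summed linear signal of 8 fibroblast markers ran from 13634 to 15757 in wild-type sham, 23395 to 29479 in wild-type AngII, 14805 to 15806 in TK sham and 16892 to 20468 in TK AngII. In wild type 7 of these 8 markers rose with AngII, and 5 of 8 were lower in TK than in wild type under AngII. The sum of the 9 macrophage markers tested, of 10 listed, ran from 1446 to 2314 in wild-type sham, 3430 to 4613 in wild-type AngII, 2343 to 3493 in TK sham and 2230 to 3557 in TK AngII. All 9 rose in wild type, and 1 of 9 was lower in TK than in wild type under AngII. Sums of 8 endothelial markers were lower with AngII, at 7644 to 8362 against 10538 to 12368 in wild type and 8012 to 8472 against 11125 to 11520 in TK. Sums of 7 smooth muscle and pericyte markers, of 8 listed, were 16862 to 18185 in wild-type sham, 8733 to 9332 in wild-type AngII, 13657 to 23517 in TK sham and 13380 to 17863 in TK AngII. Of these 7, 4 fell in wild type and 3 were higher in TK than in wild type under AngII. The sum of 2 atrial myocyte markers, of 4 listed, ran from 2284 to 4553, 21266 to 24299, 3067 to 4187 and 9813 to 12069 in the same order of groups. Both rose in wild type, the natriuretic peptide gene Nppa by 2.99, and which cells gave these signals was not tested. Only 2 of 10 T and B cell markers passed the detection rule, with sums of 47 to 67 over all Balb/C arrays. The part of these cell types in the results above was not tested.

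In C57Bl/6J ventricle the members that passed the detection rule pointed the other way, and nearly all differences stayed short of the test. For AngII against sham in wild type, 24 of 26 members were below 0, with medians of -0.39 for the S-phase and -0.24 for the mitotic members, against -0.02 over all genes. Only Rrm2 passed, where 7.91% of all genes did. With no filter on detection, 13 of 41 members with a probe were above 0. The medians were then -0.39 for the S-phase and -0.05 for the mitotic members, and 11 of 26 mitotic members were above 0. Rrm2 was at 5.07, 5.30 and 5.04 in wild-type sham and 4.46, 4.66 and 4.44 with AngII, a fall of 0.62 (SE 0.13, adjusted p 0.0145, limma). Its probe was detected on the 3 sham arrays and no other C57Bl/6J array, so it had to differ to be tested, and its fold is a bound of at least 1.06-fold lower.

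Hmgb2 (-0.74, adjusted p 0.0543), Mcm7 (-0.73, adjusted p 0.106), Mcm2 (-0.68, adjusted p 0.0756), Birc5 (-0.59, adjusted p 0.0962), Cdk1 (-0.55, adjusted p 0.239) and Bub1b (-0.54, adjusted p 0.0959) were the lowest of those that did not pass. Mcm2 was at 6.72, 6.84 and 6.95 in sham and 6.74, 5.92 and 5.80 with AngII, and Prc1 at 6.74, 7.58 and 6.96 and then 7.42, 6.58 and 6.17. Replicate 1 of the wild-type AngII group was the high array for both. The median over 14 mitotic members was 6.11 on that array and 5.32 and 5.43 on the other two, against 5.76, 6.23 and 5.85 in sham. Without it 5 members fell, namely Rrm2, Mcm2 (-0.98), Cdk1 (-0.90), Birc5 (-0.82) and Hmgb2 (-0.97). Without replicate 2 of wild-type sham 0 members passed. Without replicate 3 of wild-type AngII there were 2, Rrm2 and, upward, Kif23 (0.92). Without replicate 2 or replicate 3 of KO sham there were 2 as well, Rrm2 with Bub1b or with Hmgb2.

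The members above 0 in wild-type C57Bl/6J were Tyms (0.22) and Kif23, a kinesin of the central spindle (0.59, adjusted p 0.145). The Kif23 probes disagreed. Its brightest, tested probe gave 9.33, 9.22 and 9.24 in sham and 10.39, 9.98 and 9.19 with AngII, while its others gave -0.27, -0.41 (adjusted p 0.0427) and -0.64, so no direction is given for Kif23 in this strain.

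With AngII in KO C57Bl/6J, 24 of 26 members were again below 0, none passed, and 3.7% of all genes did. Of 14 further probes of 8 members, 2 were above 0 and 1 fell. The medians were -0.32 for the S-phase and -0.33 for the mitotic members, and with no filter on detection -0.26 and -0.14. Pbk was detected on no KO AngII array, and its sham mean was at least 1.3-fold higher (adjusted p 0.269). The lowest of the members detected there were Prc1 (-0.64, adjusted p 0.253), Birc5 (-0.57, adjusted p 0.124) and Mcm2 (-0.55, adjusted p 0.16). Ccnd1 gave 11.72, 11.56 and 11.63 in KO sham and 11.47, 11.22 and 11 with AngII, a separated difference of -0.40 (adjusted p 0.103). Kif23 (0.12), Cenpa (0.03) and Tyms (-0.02) were the nearest to 0 or above it.

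Between KO and wild type in C57Bl/6J no member passed. In sham 0% of all genes passed in limma, with 715 at an unadjusted p below 0.05, and the member medians were -0.15 for the S-phase and -0.16 for the mitotic list. Under AngII 0.166% of all genes passed, and all 14 mitotic members were below 0 (median -0.26), from Prc1 at -0.87 (95% interval -1.55 to -0.20, adjusted p 0.405) to Cenpa at -0.01. The S-phase median there was -0.09, with Rrm1 highest at 0.23. For the difference of the AngII responses, KO minus wild type, 0.0555% of all genes passed, and the medians were 0.06 and 0.00. Cdk1 differed by 0.17 with a 95% interval of -0.67 to 1.01. Sums of fibroblast markers in this strain ran from 13924 to 16524 in wild-type sham and 20005 to 24422 in wild-type AngII, and those of macrophage markers from 5237 to 6277 and from 7861 to 10415. Sums of 8 endothelial markers ran from 13437 to 15406 in wild-type sham and 11685 to 14061 in wild-type AngII. The fibroblast and macrophage sums were thus higher with AngII, while the endothelial sums ran lower with overlapping ranges. The part of these cell types in the member values was not tested.

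**Figure D3:**
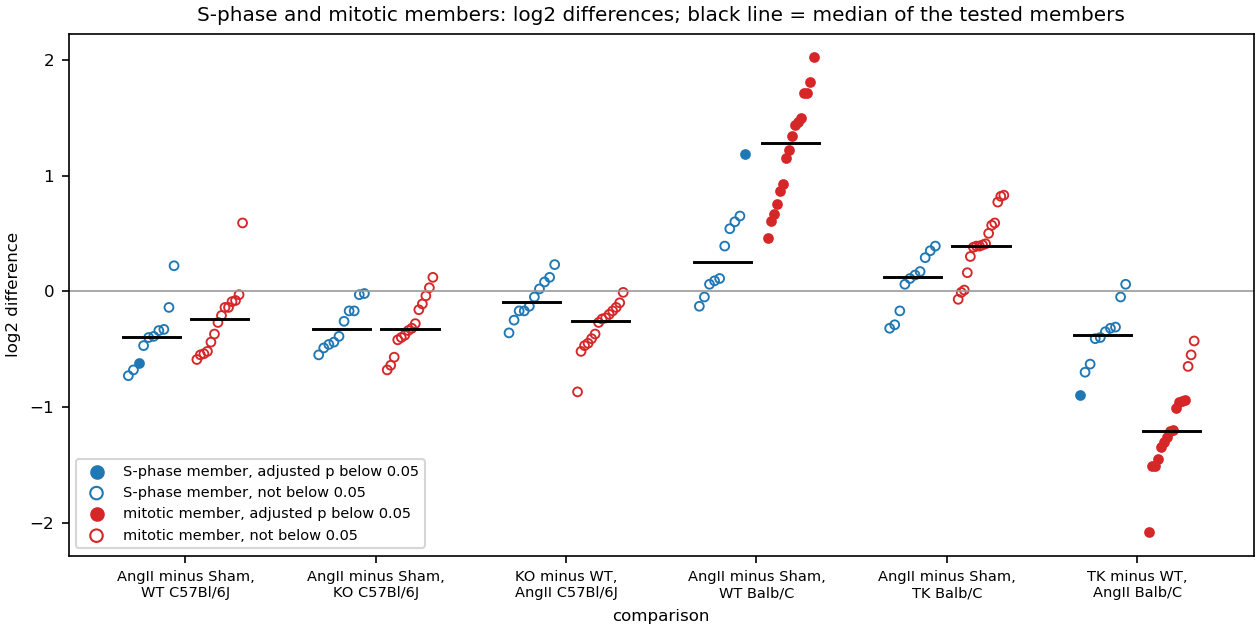
Each point is the log2 difference (vertical axis) of 1 S-phase (blue) or mitotic (red) member in 6 comparisons (horizontal axis), filled where the adjusted p was below 0.05, and black lines are medians of the members tested. In wild-type Balb/C all 16 mitotic points are filled (median 1.28) and 1 of 10 S-phase points is, while the C57Bl/6J points lie mostly below 0.

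The wild-type AngII response differed between the strains. In a joint model of 24 arrays over 9921 genes, each response taken within its own strain, 15 of 26 members had a higher response in Balb/C and 0 a lower one, where 14.8% of all genes passed (786 higher, 683 lower). All 26 differences were above 0. They comprised 11 of 14 mitotic members (median 1.73), 3 of 10 S-phase members (median 0.81) and Hmgb2. Of the 15, Rrm2 and Top2a were tested in C57Bl/6J only through the wild-type sham group, where they are high, so their C57Bl/6J side had to differ. Among members detected on all 12 arrays of both strains, which leaves out both of them, the count was 5 of 11, and with median scaling it was 25 of 26.

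Prc1 had the largest difference of responses, 2.39 (adjusted p 0.00587, limma), from 2.02 in Balb/C and -0.37 in C57Bl/6J. The joint model reads each gene from 1 probe for both strains. For Cdc20 that probe gave 1.5 in Balb/C and -0.75 in C57Bl/6J, where the gene's brightest probe gave -0.21. On the shared probe Cdc20 differed by 2.26 (adjusted p 0.000862). Birc5 differed by 2.05 (adjusted p 0.00119) and Cdk1 by 1.99 (95% interval 1.23 to 2.75, adjusted p 0.00123). Cdk1 in C57Bl/6J was at 5.67, 6.29 and 5.97 in sham and 6.12, 5.19 and 4.97 with AngII. The other mitotic members that passed were Anln (2.15), Pbk (2.08), Nusap1 (1.80), Top2a (1.67), Kif22 (1.48), Bub1b (1.41) and Cenpa (0.60). Kif22 lost its call in 8 of 32 alternative fits, where adjusted p reached 0.0972 (limma). Aurkb (0.74, adjusted p 0.0746), Aurka (0.64, adjusted p 0.244) and Kif23 (0.34, adjusted p 0.546) did not pass.

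Hmgb2 differed by 1.42 (adjusted p 0.00119), at 7.15, 7.29 and 7.39 in C57Bl/6J sham and 7, 6.11 and 6.50 with AngII. The S-phase members that passed were Mcm5 (0.99, adjusted p 0.0329), Tyms (0.96, adjusted p 0.0284) and Rrm2. The call of Mcm5 was lost in 9 of 33 alternative fits and that of Tyms in 6 of 33, mostly with a single array left out. Adjusted p reached 0.0871 and 0.085 there (limma). The fitted value of Rrm2 (1.01, adjusted p 0.00454) rests on C57Bl/6J AngII arrays on which its probe was not well above background, and is no measure of size. Mcm5 did not pass in either strain alone, with C57Bl/6J values of 6.88, 7.28 and 7.04 in sham and 6.87, 6.62 and 6.53 with AngII. Tk1 (0.87, adjusted p 0.0643), Mcm7 (0.82), Mcm6 (0.79), Mcm2 (0.63), Mcm3 (0.53), Mcm4 (0.45), Ccnd1 (0.39) and Rrm1 (0.25) did not pass. In the Bmx-deficient mice 0 of 26 members passed for the same difference, and 1.12% of all genes did. The medians were 0.83 for the mitotic and 0.27 for the S-phase members, and 25 of 26 members were above 0, the exception being Cenpa at -0.10. Nusap1 had the smallest adjusted p (0.0902), with a fitted value resting on undetected TK sham arrays, and Prc1 differed by 1.47 (adjusted p 0.178). Both passed without replicate 1 of TK AngII, Prc1 at 2.01. Whether the strain difference itself differed between wild-type and deficient mice was not tested.

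**Figure D4:**
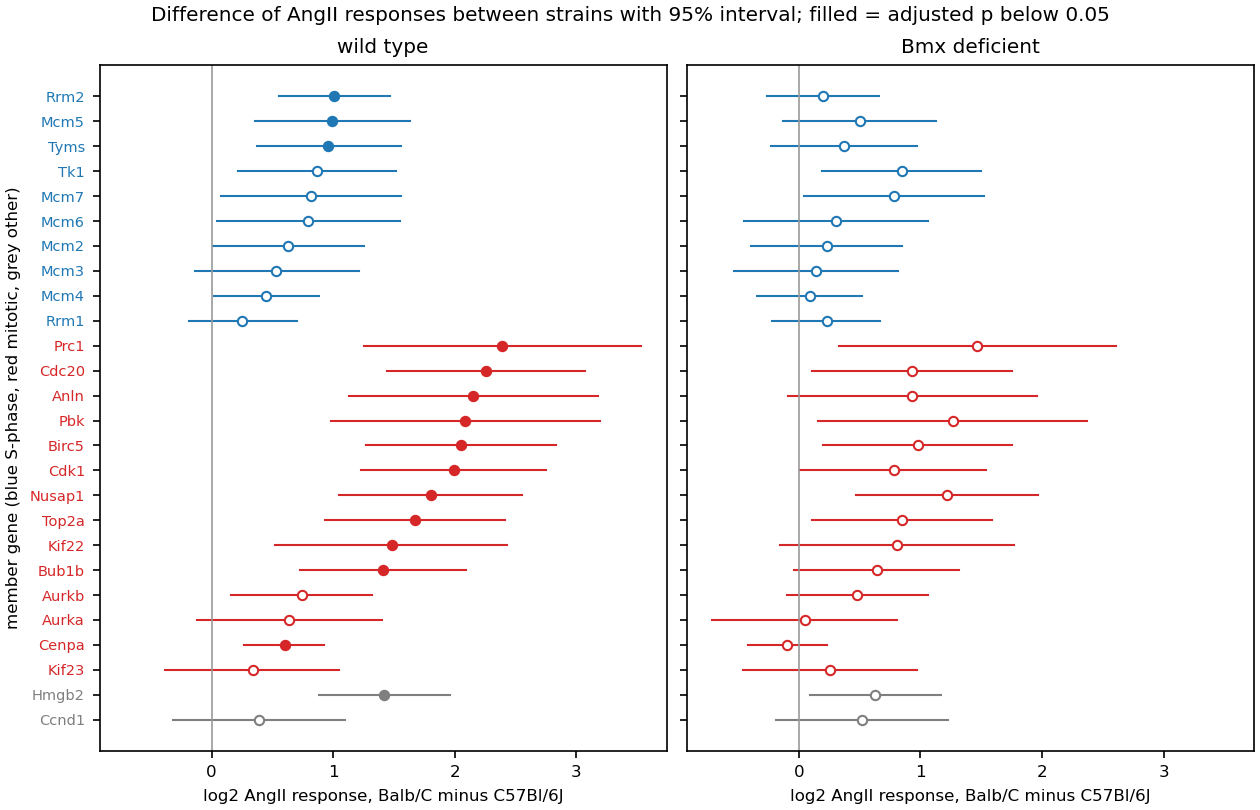
Points are differences of the AngII response, Balb/C minus C57Bl/6J (horizontal axis, log2, with 95% intervals), for 26 members (vertical axis) in wild-type (left) and Bmx-deficient mice (right), filled where the adjusted p was below 0.05. In wild type 15 points are filled and all lie above 0, with Prc1 at 2.39 and Rrm1 lowest at 0.25, and in the deficient mice none is filled.

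Other cell cycle genes, which are no members themselves, were read from separate lists of regulators and of replication, mitosis and growth arrest genes. Of 7 CDK inhibitors, the brakes on cyclin-dependent kinases, 4 rose and 1 fell with AngII in wild-type Balb/C. Of all genes 17.8% rose and 19.4% fell there. Cdkn2b (p15) rose by 1.81, from 4.75, 4.69 and 5.02 to 6.19, 6.87 and 6.85 (adjusted p 3.76e-06), and Cdkn1c (p57) fell by 1.76, from 11.19, 11 and 10.77 to 9.47, 9.21 and 9 (adjusted p 5.39e-07). These 4 inhibitors and the mitotic members were thus high on the same arrays. In TK Balb/C the same pair passed with smaller values, Cdkn2b by 0.68 and Cdkn1c by -0.82. The difference of those responses was itself past the test, at -1.13 for Cdkn2b (adjusted p 0.0344) and 0.94 for Cdkn1c (adjusted p 0.0264), which no member was. In C57Bl/6J 0 of 7 inhibitors passed in wild type, with Cdkn1a (p21) at 1.21 (adjusted p 0.109).

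Of 14 E2F, pocket protein and DREAM factors, 5 rose and 1 fell in wild-type Balb/C, among them the S-phase activator E2f1 by 1.10 (adjusted p 0.00938) and Rb1, the retinoblastoma protein that restrains it, by 1.03. In wild-type C57Bl/6J E2f1 fell by 0.53 (adjusted p 0.0308), and in KO C57Bl/6J Foxm1, the activator of mitotic genes, fell by 0.62 (adjusted p 0.0314). The strains' wild-type E2f1 responses differed by 1.64 (adjusted p 0.0054). Of 33 origin and fork genes in wild-type Balb/C, 7 rose and 6 fell, and of 25 spindle, kinetochore and condensin genes 12 rose and 1 fell. Over all genes 17.8% rose and 19.4% fell in this comparison, and the difference between the lists was not tested. The risers included Uhrf1 (1.64), a DNA methylation maintenance factor, and Cdca8 (1.52), a partner of Birc5 in the passenger complex. Cdca8 was at 5.92, 6.32 and 6.26 in sham and 7.26, 8.19 and 7.62 with AngII, and at 5.45, 5.99 and 7.03 in TK with AngII. Under AngII 9 of 25 spindle genes were lower in TK than in wild type and 5 of 33 origin and fork genes, where 6.75% of all genes were lower. Cdca8 had a log2 difference of -1.53 there (adjusted p 0.0044). In wild-type C57Bl/6J 3 of 28 origin and fork genes fell, the largest being Rpa2, a single-strand DNA-binding subunit (-0.87, adjusted p 0.00361), and 1 of 19 spindle genes, Cenpf (-0.82, adjusted p 0.0205). Of all genes 4.23% fell in that comparison. Of the p53 and growth arrest genes in wild-type Balb/C, 2 of 8 rose and 3 fell, led by Gadd45g (1.24). Of 8 G1 cyclins and kinases 1 rose there, Ccnh (0.86), and of 11 anaphase-promoting complex genes 1 rose and 2 fell.

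Scaling each array to a common median in place of quantile normalization moved the median over all genes by over 0.1 in some comparisons. In wild-type Balb/C it went from -0.06 to 0.32, and the share of calls that were higher from 47.8% to 93% (3804 higher, 285 lower). In wild-type C57Bl/6J the median stayed near its value (-0.02 and -0.03), as did the share (46.5% and 47.2%). In TK Balb/C the median was -0.05 and -0.04 while the share went from 55.6% to 81.3%, and in KO C57Bl/6J the share went from 55% to 87% with medians of -0.02 and 0.08. For TK against wild type under AngII the median over all genes went from 0.00 to -0.26 and the share of higher calls from 36.8% to 4.92% (106 higher, 2047 lower), and for KO against wild type under AngII the share went from 33.3% to 56.2%. For the response of TK minus that of wild type the share went from 27.4% to 0.392%. For the strain difference it went from 53.5% to 98.3% in wild type, with a median over all genes of 0.41, and from 63.1% to 45% in the deficient mice. Measured against that shift, the mitotic median in wild-type Balb/C was 1.34 before and 1.33 after, and the S-phase median 0.31 and 0.28. For TK against wild type under AngII the mitotic median was -1.20 in both scalings and the S-phase median -0.37 and -0.39. No called member changed direction under any scaling tried.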

How the data were processed

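The members and the gene lists were chosen with earlier results of these data known. RNA was extracted with TRIsure and NucleoSpin columns and labelled with biotin, per the labels' protocols. The deposited signals were linear intensity values per probe, not normalized, each with a deposited detection p-value, in 1 file per strain, per the file headers. The authors' deposited series values were log2 values, which matched signals quantile-normalized within each strain without background correction, and they served as an alternative. The sources used here name no scanner software, settings, slides or scan times. In the Balb/C signals, 313 detection cells on 11 arrays that had lost their decimal point were taken as 1, all of them probes in the lowest 0.258% of signals. Columns took their samples from the labels in their names, and 0 had no sample.

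The software was R 4.3.3 and limma 3.58.1, with the data.table package at version 1.17.8. Within each strain signals were background-corrected with neqc (normal-exponential model on the detection p-values, offset 16), quantile-normalized and put on log2. Probes with a detection p below 0.05 on at least 3 of 12 arrays were kept, each gene was read from its brightest kept probe, and genes were named through the platform annotation, which gave 1 symbol to 34885 of 45281 probes, several to 18 and none to 10378. A model of 4 group means per strain, with 8 residual degrees of freedom, was fitted over all genes with limma, and all 24 arrays were fitted together for strain differences, with each gene read from 1 probe kept in both strains. Benjamini-Hochberg adjustment ran over all genes of a contrast. The procedure was tested on simulated data. The number of arrays, 3 a group, limits the precision.

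Where a probe was detected on no array of a group, a fold was taken as a bound, with the dim group's arrays raised to the lowest signal detected on each where they lay under it. Genes named were the members that passed, the 2 highest and 2 lowest of each role in each AngII comparison, a fixed set of well-known members, and up to 4 passing genes of each other list; other members and dim members were named to account for all 44. Alternatives were no background correction, median scaling, no detection filter, a stricter detection p of 0.01, the mean of kept probes, a replicate block, the deposited log2 values, a trended prior, the compared groups only, and leaving out each array. Members detected on all 12 arrays were counted as an alternative chosen after seeing the data. Same-numbered samples of different groups did not deviate together (median correlation of deviations -0.03 in C57Bl/6J and 0 in Balb/C), so the numbers were not taken as pairs. Promoter windows came from RefSeq, assembly GRCm38.p6.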

Additional observations from a re-analysis of the deposited data

Results flagged for a closer look

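The AngII response of wild-type mice differed between the strains for 15 members, by the test of the difference itself in the joint model of both strains (limma, adjusted p below 0.05), each time higher in Balb/C. On the log2 scale the response in Balb/C exceeded that in C57Bl/6J by 2.39 for Prc1, 2.26 for Cdc20, 2.15 for Anln, 2.08 for Pbk, 2.05 for Birc5, 1.99 for Cdk1, 1.80 for Nusap1, 1.67 for Top2a, 1.48 for Kif22 and 1.41 for Bub1b. It exceeded it by 0.60 for Cenpa and by 1.42 for Hmgb2. Among the S-phase members the differences were 0.99 for Mcm5 and 0.96 for Tyms, and the fitted value for Rrm2 was 1.01. The calls of Mcm5, Tyms and Kif22 were lost in some of the alternative fits. Rrm2 and Top2a were tested in C57Bl/6J only through the wild-type sham group, in which they are high, and the Rrm2 probe was detected on no C57Bl/6J AngII array, so its value is no measure of size. Cdc20 was read from 1 probe shared by both strains, which is not its brightest in C57Bl/6J. The strains were deposited in separate tables and normalized apart, so that only differences within a strain enter these values. Strain and table cannot be told apart.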

How the results depend on the processing

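Of the member counts, 2 comparisons between genotypes at the sham baseline stayed at 0 under every alternative run, as did those between KO and wild type in C57Bl/6J under AngII and in response. For AngII in wild-type C57Bl/6J the count of 1 became 3 with median scaling, and 2 both with a trended prior and with the compared groups alone. For AngII in KO C57Bl/6J the 0 became 1 without background correction, with the deposited values and with a trended prior. With median scaling the count for AngII in wild-type Balb/C went from 18 to 24, and that for TK against wild type under AngII from 14 to 24. The count for the response of TK minus wild type then went from 0 to 8, and that for the wild-type strain difference from 15 to 25. These changes came alongside the shift of all genes given in the report. Among members detected on all 12 arrays, which leaves fewer to test, the counts were 8 for AngII in wild-type Balb/C, 6 for TK against wild type under AngII and 5 for the wild-type strain difference. The S-phase median for AngII in wild-type Balb/C was 0.61 with median scaling. The mitotic median there was 0.57 without background correction, 0.71 with no filter and 0.57 with the deposited values, and for TK against wild type under AngII it was -0.46, -0.80 and -0.46. Except for the smaller set tested, the cause of these changes was not tested.

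Leaving out 1 array at a time gave 0 to 5 members for AngII in wild-type C57Bl/6J, 15 to 21 in wild-type Balb/C and 0 to 4 in TK Balb/C. It gave 7 to 21 for TK against wild type under AngII, 0 to 4 for the response of TK minus wild type, 12 to 20 for the wild-type strain difference and 0 to 2 for that of the deficient mice. Of 48 member calls, 9 were lost with no filter, 3 without background correction and 3 with the deposited values. The replicate numbers share only a name. With the replicate number as a block the count for AngII in TK Balb/C went from 0 to 2 (Nusap1 and Anln), for wild-type Balb/C it was 21 and for TK against wild type under AngII 16, and 0 of the 48 calls were lost. Signal over background limits what can be read: 11 of the 26 members tested in C57Bl/6J and 14 of 28 in Balb/C were not detected on every array, and 13 with probes went untested in both strains.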
